A study of Mus musculus with 6 samples.

Results

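Single-cell transcriptomes of whole lung were compared between a Bdnf control library and a Bdnf iPCKO library, in which Bdnf was deleted by a pericyte driver. Every barcode with at least 1500 unique molecular identifiers (UMIs) and at most 25% of UMIs from mitochondrial (mt-) genes was kept as a cell. This left 16749 control cells and 23765 iPCKO cells, 40514 of the 73503 cells that pass the same limits in the 6 libraries of the series. The cells were divided by marker genes into epithelial, endothelial, mesenchymal and immune lineages. Genes that differed in the same direction in every lineage were then set apart from genes that differed in 1 lineage only.

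The iPCKO animals carried loxP-flanked Bdnf alleles and the Pdgfrb(BAC)-CreERT2 transgene, a tamoxifen-inducible recombinase under the promoter of Pdgfrb, a gene of pericytes and other mural cells. Which cells recombined cannot be read from these libraries. Controls carried the loxP-flanked alleles without CreERT2. Both groups received 50 µg of tamoxifen on postnatal days 1 to 3, and lungs were taken at postnatal day 21. Each library pooled the cells of 2 mice after depletion of CD45+ and Ter119+ cells, which removes leukocytes and erythroid cells, and 40000 cells were prepared for BD Rhapsody capture. Each genotype therefore has 1 library, and no difference between the genotypes can be tested against the spread between animals. The intervals given are 95% intervals for counting error only. An Hgf control and an Hgf iPCKO lung library of the same age, tamoxifen course and driver, with their own controls, are given beside some values. So is a pair of cerebral cortex libraries of Nodal iPCKO mice and their control with loxP-flanked Nodal, taken at postnatal day 12 after the same tamoxifen course.

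Brain-derived neurotrophic factor, the product of Bdnf, is a secreted growth factor that signals through the receptor tyrosine kinase Ntrk2 (TrkB). In the lung, gas exchange takes place between flat alveolar type 1 (AT1) epithelial cells and capillary endothelium, while alveolar type 2 (AT2) cells make surfactant and renew the epithelium. Pericytes lie on the capillaries, and fibroblasts and myofibroblasts build the matrix and the elastic fibres of the alveolar wall.

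The control and iPCKO libraries held 169814433 and 186701379 UMIs in all, with a median of 7191 and 5085 UMIs per cell. The 2 libraries had 432 cell barcodes in common, where unrelated draws from the list of barcodes would give 436. Each of the 14 epithelial, 14 endothelial, 15 mesenchymal and 15 immune gate markers was highest in its own lineage in both libraries. The median log2 ratio of all genes measured, iPCKO over control, was 0.03 in epithelial, -0.03 in endothelial, 0.02 in mesenchymal and 0.01 in immune cells. Y-linked Ddx3y was at 89.0 and 91.2 CPM in epithelial cells (UMIs of a gene per 1000000 UMIs of the lineage in that library) and the X-inactivation RNA Xist at 9.5 and 12 UMIs, so male RNA was present at a similar level and female RNA was near 0 in both libraries.

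Lineage shares differed by a few points. Epithelial cells were 42.3% of the control library (95% Clopper-Pearson interval 41.5 to 43.0) and 38.4% of the iPCKO library (37.8 to 39.0). Endothelial cells were 26.7% of the control library (4474 cells), and their share in the iPCKO library (6180 cells) differed by -0.707 points (interval -1.58 to 0.164). Mesenchymal cells were 16.0% and 16.4%. Only the epithelial and immune intervals were clear of each other among the 4 lineages. These differences depended on the cell limits: with at least 3000 UMIs per cell they were -1.29 points for epithelial, -3.50 for endothelial and -1.65 for mesenchymal cells, and with at most 15% of UMIs from mitochondrial genes they were -6.01, 0.806 and 2.03. Immune cells, which the CD45 depletion removes, were 57 control cells (0.340%) and 38 iPCKO cells (0.160%). Barcodes with markers of 2 or more lineages made up 12.8% and 15.3%, and Scrublet, a doublet caller, marked 59.0% and 55.2% of them. Barcodes of no lineage were 1.83% and 3.70%. In the Hgf pair the epithelial share was 50.5% and 39.1% and the endothelial share 32.0% and 39.9%.

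Within the epithelium, AT2-like cells were 70.0% of control (4954 of 7077) and 57.7% of iPCKO epithelial cells (5264 of 9130). The share of AT1-like cells was 17.0% and 23.3%, that of airway secretory-like cells 3.98% and 6.06%, and that of ciliated-like cells 2.97% and 4.39%. All 4 pairs of intervals were clear of each other, and AT2-like cells were the subtype with the lower share in the iPCKO library. The AT1 difference was 2.5 points with at least 3000 UMIs per cell and 13.7 points with at most 15% mitochondrial UMIs, and the AT2 difference was -10.1 and -20.2 points. In the Hgf pair AT2-like cells were 77.2% and 61.9%.

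Among endothelial cells, general capillary (gCap)-like cells were 58.1% and 52.5%, and aerocyte capillary (aCap)-like cells, which line the thin gas exchange surface, were 11.9% and 15.4%. Venous-like cells stayed within counting error at 13.0% and 12.4%. Cells of no named subtype were 8.67% and 13.2% of endothelial cells. With at least 3000 UMIs per cell the differences were -7.83 points for gCap-like, 1.34 for aCap-like and 2.75 for venous-like cells. In the mesenchyme matrix fibroblast-like cells, marked by genes such as Inmt and Npnt, were 17.9% of control (481 of 2684) and 7.83% of iPCKO mesenchymal cells (305 of 3895). Their share was also lower in the Hgf iPCKO library, at 18.6% of control (132 of 710) and 4.00% of iPCKO mesenchymal cells (29 of 725). Myofibroblast-like cells of the Bdnf pair were 41.1% and 45.5%. When only cells with at least 3000 UMIs were kept, the differences were -7.09 points for matrix fibroblast-like, -7.59 for myofibroblast-like and 10.2 for adventitial fibroblast-like cells, so the order of the myofibroblast shares turned. Pericyte-like cells, the targeted cells, were 107 (3.99%, interval 3.28 to 4.80) and 129 (3.31%, interval 2.77 to 3.92), intervals that overlap. Mesothelial-like cells were 12 (0.447%) and 55 (1.41%).

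**Figure D1:**
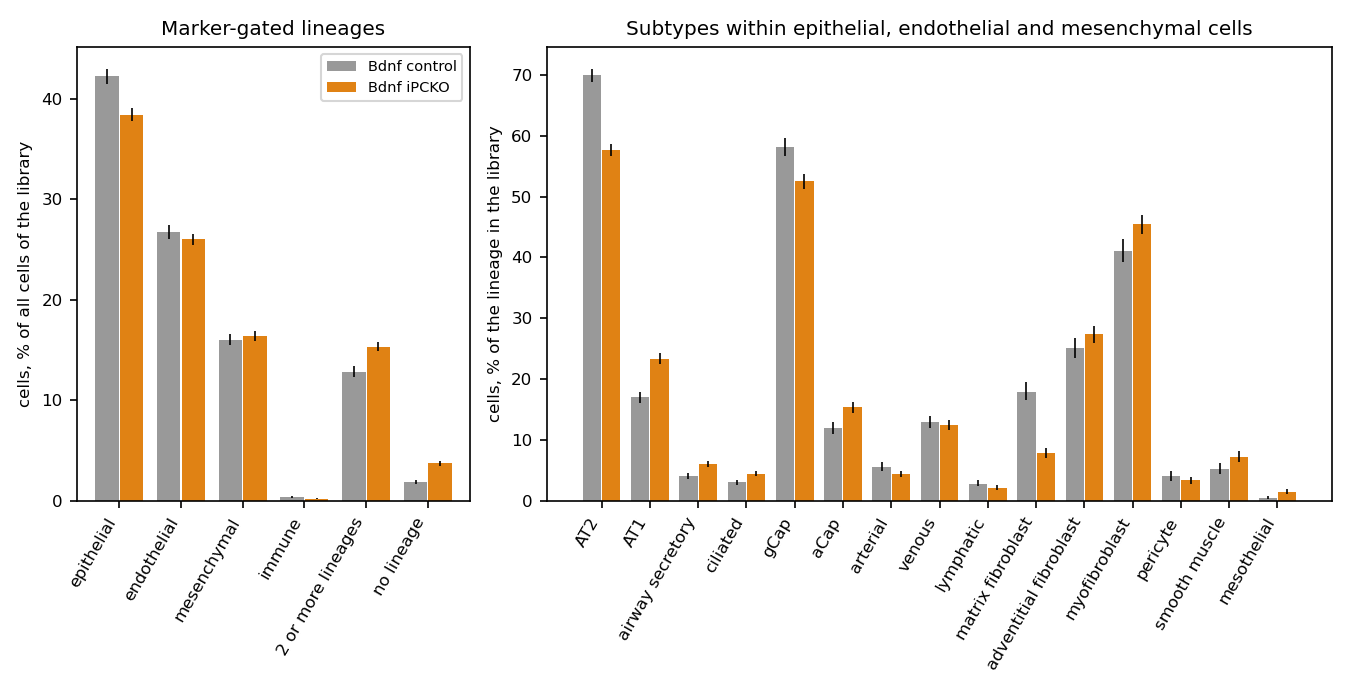
Shares of marker-gated lineages (left, percent of all cells of the library) and of subtypes within 3 lineages (right, percent of the lineage) in the Bdnf control (grey) and Bdnf iPCKO (orange) libraries. Bars are shares of cells and error bars are 95% Clopper-Pearson intervals for counting error only; AT2 and matrix fibroblast shares are lower in iPCKO, at 57.7% and 7.83%, than in control, at 70.0% and 17.9%.

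UMIs were then summed per library and lineage, and the ratio of CPM was taken for genes with at least 100 UMIs in the 2 libraries together. The gate and subtype markers and genes with duplicated symbols were left out of the genes compared. At 2-fold or more, 279 of 16333 genes were higher in iPCKO epithelial cells (1.71%) and 82 lower (0.502%). In endothelial cells 140 of 13912 genes were higher (1.01%) and 156 lower (1.12%). In mesenchymal cells 186 of 12813 genes were higher (1.45%) and 99 lower (0.773%), and in the few immune cells 26 of 1726 genes were higher (1.51%) and 55 lower (3.19%). The Hgf pair, with fewer UMIs, had 713 genes higher and 643 lower of 13680 in epithelial cells.

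Few genes differed in every lineage. Of 1604 genes measured in all 4 lineages, 3 (0.187%) were at least 1.5-fold higher in each, namely Rpl9, Fryl and Slc38a1, of which Rpl9 and Fryl lie in 1 stretch of chromosome 5 from Arap2 to Polr2b, and 0 were at least 1.5-fold lower in each. Rpl9 encodes a protein of the large ribosomal subunit. Its level was 809 CPM in control and 1408 CPM in iPCKO epithelial cells, 574 and 955 CPM in endothelial cells, 667 and 1196 CPM in mesenchymal cells, and 1466 and 2628 CPM in immune cells. The log2 ratios of Rpl9 lay between 0.73 and 0.84, although processed copies of this gene elsewhere in the genome make the assignment of its reads uncertain. Fryl had log2 ratios of 0.69, 0.71, 0.89 and 0.64 in epithelial, endothelial, mesenchymal and immune cells. Slc38a1, a neutral amino acid transporter, had 0.60, 0.68, 1.04 and 0.69, and its epithelial ratio was -0.11 when subtypes were weighted equally.

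The immune cells were too few for most genes, so the same rule was applied to the 3 large lineages. Of 11857 genes measured in epithelial, endothelial and mesenchymal cells, 80 (0.675%) were at least 1.5-fold higher in each and 21 (0.177%) at least 1.5-fold lower in each. The 20 named genes, taken in order of their smallest ratio, held clock genes (Per3, Nr1d2, Npas2, Hlf, Dbp), interferon-stimulated genes (Rtp4, Ifi203, Ifit1), imprinted growth genes (H19, Igf2), the driver gene Pdgfrb, and genes of 1 stretch of chromosome 5 (Uchl1, Tec). The other 7 (Lhfpl3, Reg3g, Sugct, Car5a, Retnla, Or5m3b and Maff) were of none of these kinds, and Maff is on the immediate-early list. In the Hgf pair 23 of the 80 higher genes could be measured in all 3 lineages, and 19 of these were also higher in each, beside 29.3% of the 6451 genes measured there. Of the 21 lower genes 8 could be measured and 7 were lower in each, beside 23.1% of all. In barcodes with 10 to 200 UMIs, which hold free RNA rather than a cell, 80 of the 80 higher genes were also higher in the iPCKO library and 20 of the 21 lower genes lower, beside 50.7% and 49.3% of the 11857 genes. The genes had been chosen from cells of the same libraries, so these counts are a description only. After the profile of those barcodes was subtracted from each lineage, the rule was met by 33 higher and 19 lower genes of 10051 measured. Fewer than 3 UMIs of Lhfpl3, Reg3g and Retnla, among other named genes, were then left in at least 1 lineage of both libraries. Reg3g was at 224 CPM in iPCKO epithelial cells and at most 4.85 CPM in another lineage there. The summed airway secretory markers were 880 and 1708 CPM in control and iPCKO endothelial cells, and 964 and 1666 CPM in mesenchymal cells. How much of the shared differences free RNA carried was not tested.

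**Figure D2:**
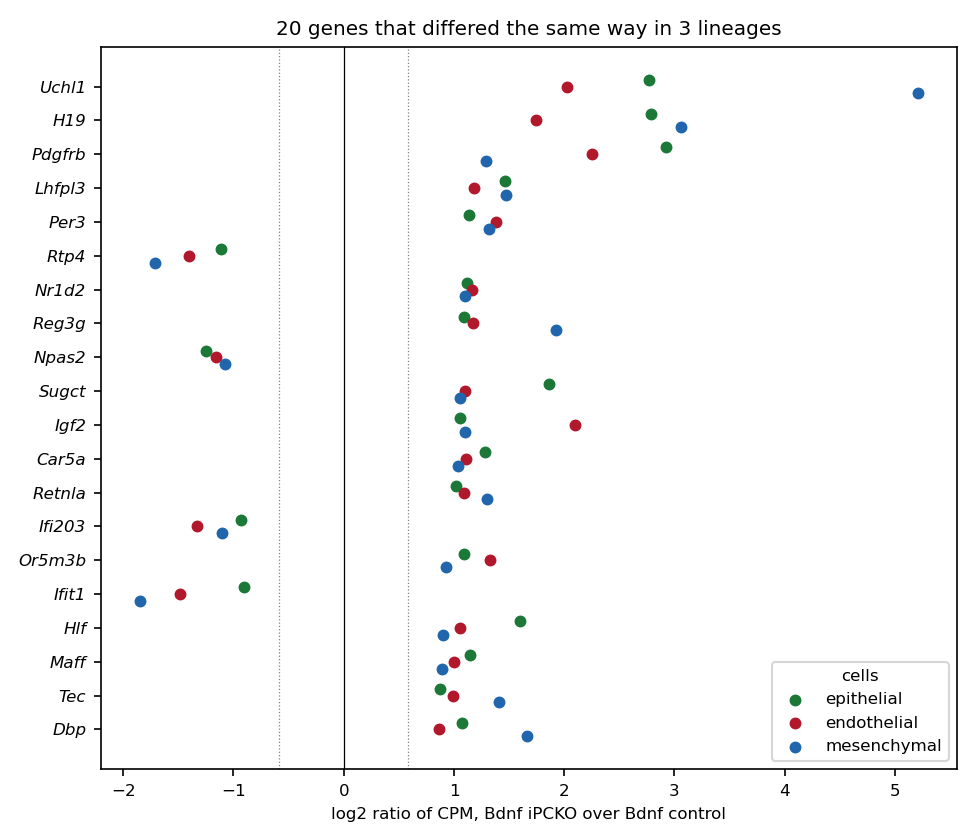
Log2 ratio of CPM, iPCKO over control, in epithelial (green), endothelial (red) and mesenchymal (blue) cells for the 20 named genes with the largest smallest ratio among those at least 1.5-fold different in each of 3 lineages. Dotted lines mark 1.5-fold; Rtp4, Npas2, Ifi203 and Ifit1 lie on the lower side in all 3 lineages and the other genes on the higher side.

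The targeted gene, Bdnf, gave no check of the deletion in these libraries. In pericyte-like cells 8 UMIs were found in 107 control cells and 5 UMIs in 129 iPCKO cells, and the interval of the log2 ratio ran from -2.51 to 1.24. Most Bdnf RNA lay in AT1-like cells, at 211 CPM in control and 187 CPM in iPCKO cells, and in myofibroblast-like cells, at 80.4 and 65.8 CPM. Over the whole lineage the log2 ratio of Bdnf was -0.07 in epithelial cells (2642 and 2405 UMIs) and -0.04 in mesenchymal cells (455 and 481 UMIs). The epithelial ratio was -0.15 with at least 3000 UMIs per cell and 0.40 with every cell thinned to 1500 UMIs. The mesenchymal ratio was -0.27 and -0.23 under these settings, and -0.44 with subtypes weighted equally. Endothelial cells had 51 and 122 UMIs, a log2 ratio of 1.08, the only lineage past 2-fold. In the same endothelial cells the summed epithelial gate markers were 297 and 503 CPM, with 0 of 14 markers at 0 in either library. The summed 8 markers of AT1-like cells, which held most Bdnf RNA, were 699 and 1463 CPM there, a log2 ratio of 1.07. After subtraction of the profile of barcodes without a cell, fewer than 3 Bdnf UMIs were left in both libraries. Ntrk2, the receptor, had log2 ratios of 0.17 in endothelial and -0.23 in mesenchymal cells.

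Pdgfrb, the platelet-derived growth factor receptor of mural cells and the gene whose promoter drives the transgene, was higher in every large lineage of the iPCKO library. Pericyte-like cells had 295 UMIs (671 CPM) in control and 845 UMIs (2097 CPM) in iPCKO, a log2 ratio of 1.64 (interval 1.45 to 1.84). AT1-like cells had 4 and 97 UMIs, and epithelial cells as a whole 31 and 227 UMIs. The lineage ratios were 2.92 in epithelial, 2.25 in endothelial and 1.29 in mesenchymal cells, and in the Hgf pair 3.15, 2.64 and 2.49. After subtraction of the profile of barcodes without a cell, fewer than 3 Pdgfrb UMIs were left in epithelial and in endothelial cells of both libraries, and the mesenchymal ratio was 1.31. Myoz3, a muscle Z-disc protein gene, lies on the same chromosome with several genes between. Myoz3 was also higher, with log2 ratios of 1.68, 0.71 and 1.01 in the same order of lineages. After the same subtraction, fewer than 3 Myoz3 UMIs were left in some lineage of both libraries. In the Hgf pair the Myoz3 ratios were 0.74, -0.62 and -3.52, the last from UMIs under the minimum for a measured gene. Csf1r, the protein-coding gene that follows Pdgfrb, was higher in endothelial cells (56 and 204 UMIs) and near equal in epithelial cells (3025 and 2953 UMIs). Reads of the transgene cannot be told apart from those of the gene in these counts.

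Circadian clock genes differed in all 3 large lineages. In this feedback loop the activators Arntl (BMAL1), Clock and Npas2 switch on the Per, Cry and Nr1d repressors and the output factors Dbp, Tef and Hlf, so the 2 arms peak at different times of day. In the iPCKO library the activator Npas2 was lower and most repressors and output factors were higher. The printed promoters carry the elements through which these factors are known to act, in capitals on either strand. They are 300 bases from 250 before to 50 after the annotated start, from RefSeq on GRCm38.p6, and show the 2 arms: the D-box TTATGTAA for Per3 (chr4:151044616-151044915, minus strand), the E-box CACGTG for Ciart (chr3:95882179-95882478, minus strand) and the ROR element, matched as AAGTAGGTCA with any base allowed after the leading AA, for Arntl (chr7:113207261-113207560, plus strand).
Per3: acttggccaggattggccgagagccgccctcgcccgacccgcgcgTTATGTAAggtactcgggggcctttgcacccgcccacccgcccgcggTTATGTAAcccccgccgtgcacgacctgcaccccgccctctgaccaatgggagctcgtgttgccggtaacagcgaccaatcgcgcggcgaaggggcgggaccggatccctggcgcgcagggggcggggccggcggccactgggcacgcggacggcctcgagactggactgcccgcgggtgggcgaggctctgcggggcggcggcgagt
Ciart: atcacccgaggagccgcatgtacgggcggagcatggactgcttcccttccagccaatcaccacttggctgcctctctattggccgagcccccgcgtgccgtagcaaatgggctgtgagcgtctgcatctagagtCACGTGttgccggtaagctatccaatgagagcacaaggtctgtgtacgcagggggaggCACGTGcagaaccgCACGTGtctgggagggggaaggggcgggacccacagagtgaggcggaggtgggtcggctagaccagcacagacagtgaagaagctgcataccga
Arntl: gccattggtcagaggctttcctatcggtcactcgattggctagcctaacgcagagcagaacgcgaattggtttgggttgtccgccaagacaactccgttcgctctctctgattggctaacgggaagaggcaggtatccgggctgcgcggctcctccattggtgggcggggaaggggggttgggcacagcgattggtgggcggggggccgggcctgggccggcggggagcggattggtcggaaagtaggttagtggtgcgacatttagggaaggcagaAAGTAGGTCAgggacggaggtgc
Of 32851 promoters of this length, 0.938% held the D-box, 7.15% the E-box and 0.219% the ROR element. Of the 15 listed clock genes with a promoter in the table, 1, 5 and 1 held them. These matches are descriptions of the letters and were not tested as sites.

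Per3, a period repressor, had 22.7 CPM in control and 50.1 CPM in iPCKO epithelial cells, 8.15 and 21.2 CPM in endothelial cells, and 17.5 and 43.7 CPM in mesenchymal cells. Its log2 ratios were 1.14 (interval 1.05 to 1.23), 1.38 (1.14 to 1.62) and 1.32 (1.13 to 1.53). Nr1d2, a nuclear receptor that represses Arntl, was 27.4 and 59.4 CPM, 30.2 and 67.6 CPM, and 59.9 and 129 CPM in the same order of lineages. The iPCKO library was therefore about 2-fold higher for both genes in each lineage. Npas2 went the other way, with 34.6 and 14.6 CPM in epithelial, 12.2 and 5.46 CPM in endothelial and 31.6 and 14.97 CPM in mesenchymal cells. Arntl was lower too, with log2 ratios of -0.78, -0.55 and -0.79. Ciart, a repressor of the clock, had ratios of 1.15, 0.16 and 1.44. Dbp, an output factor that binds the D-box, had ratios of 1.07, 0.86 and 1.66. Its relative Hlf had 1.31 and 3.98 CPM in epithelial cells and ratios of 1.06 and 0.90 in endothelial and mesenchymal cells.

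With the profile of barcodes without a cell subtracted, fewer than 3 UMIs of Per3 and Npas2 were left in endothelial cells and of Hlf in epithelial cells of both libraries. The Per3 ratios were then 1.33 in epithelial and 1.53 in mesenchymal cells, and those of Nr1d2 1.14, 1.13 and 1.12.

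Over the clock list as a whole, 6 of 17 measured members were at least 2-fold higher and 1 was 2-fold lower in epithelial cells, 6 and 1 of 16 in endothelial cells, and 4 and 1 of 17 in mesenchymal cells. The median log2 ratio was 0.56, 0.76 and 0.46, against 0.03, -0.03 and 0.02 over all genes. The Hgf pair showed the list at 1.94, 1.99 and 1.73, with Per3 at 2.35, 2.55 and 2.98 and Npas2 at -2.83, -2.79 and -1.63. The hour at which each lung was taken is not given in the sources used here, so the hour and the genotype cannot be told apart.

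Genes that cells switch on in answer to interferon were mostly lower in the iPCKO library, and passed 2-fold most often in the endothelium. Interferons act through transcription factors that bind the interferon-stimulated response element (ISRE), taken here as a pair of GAAA runs parted by any 2 bases, on either strand. The promoters of Ifit1 (chr19:34640639-34640938, plus strand, 2 matches) and Isg15 (chr4:156200769-156201068, minus strand, 3 overlapping matches) are shown because Ifit1 was lower in all 3 lineages and Isg15 in the 2 where it reached the UMI minimum. The capitals mark the matches, on the same build and window as above.
Ifit1: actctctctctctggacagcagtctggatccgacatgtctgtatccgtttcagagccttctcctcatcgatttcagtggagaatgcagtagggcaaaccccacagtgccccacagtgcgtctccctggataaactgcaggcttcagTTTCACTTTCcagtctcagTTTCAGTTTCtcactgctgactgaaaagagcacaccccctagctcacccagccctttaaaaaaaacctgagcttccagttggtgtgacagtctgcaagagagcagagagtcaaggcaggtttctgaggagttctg
Isg15: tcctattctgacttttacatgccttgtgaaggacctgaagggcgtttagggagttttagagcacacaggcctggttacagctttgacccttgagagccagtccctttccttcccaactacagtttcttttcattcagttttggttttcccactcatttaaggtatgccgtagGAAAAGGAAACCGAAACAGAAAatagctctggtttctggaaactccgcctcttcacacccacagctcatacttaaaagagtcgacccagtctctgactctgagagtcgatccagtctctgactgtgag
The element was found in 3.44% of all promoters and for 6 of the 11 listed interferon genes with a promoter in the table.

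Ifit1, which encodes an RNA-binding antiviral protein, had 25.4 CPM in control and 13.6 CPM in iPCKO epithelial cells, 30.9 and 11.04 CPM in endothelial cells, and 8.34 and 2.29 CPM in mesenchymal cells. Its log2 ratios were -0.90, -1.49 and -1.85. Isg15, a ubiquitin-like protein attached to other proteins during the interferon response, had 1.48 and 0.497 CPM, 13.9 and 5.37 CPM, and 2.86 and 0.516 CPM. The iPCKO value was the lower one in each lineage for both genes, but in mesenchymal cells Isg15 had 46 and 9 UMIs, under the minimum of 100 for a measured gene. Rtp4 had log2 ratios of -1.11, -1.40 and -1.71. Ifi44 was the interferon gene with the lowest endothelial ratio, at 40.4 CPM in control and 6.82 CPM in iPCKO (-2.56, interval -2.80 to -2.34). Irf7, a transcription factor of this response, had 11.1 and 4.18 CPM in endothelial cells and 1.62 and 1.66 CPM in epithelial cells.

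Across the list, 8 of 13 measured members were at least 2-fold lower in endothelial cells, 2 of 13 in epithelial cells and 2 of 10 in mesenchymal cells, and 0 were 2-fold higher in any of them. In epithelial cells 4 of the 13 were above 0. The medians were -1.20, -0.53 and -0.77. Antigen presentation genes, which interferon also raises, had medians of -0.84 in endothelial, -0.47 in epithelial and -0.56 in mesenchymal cells. Every measured member was below 0 in each lineage. Among all genes 7692 of 13912 were below 0 in endothelial, 7411 of 16333 in epithelial and 5994 of 12813 in mesenchymal cells. B2m, the light chain of class I molecules, was 2245 and 1213 CPM in endothelial, 375 and 293 CPM in epithelial, and 741 and 521 CPM in mesenchymal cells. With subtypes weighted equally the mesenchymal median was -1.18. In the Hgf pair the interferon list had medians of -1.06 in epithelial, -1.58 in endothelial and -0.47 in mesenchymal cells, the last over only 2 measured members. The summed immune gate markers, a list of 15 leukocyte genes, were 111 and 85.9 CPM in endothelial, 184 and 142 CPM in epithelial and 145 and 174 CPM in mesenchymal cells, with 0 to 3 markers at 0. Their part in these ratios was not tested.

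**Figure D3:**
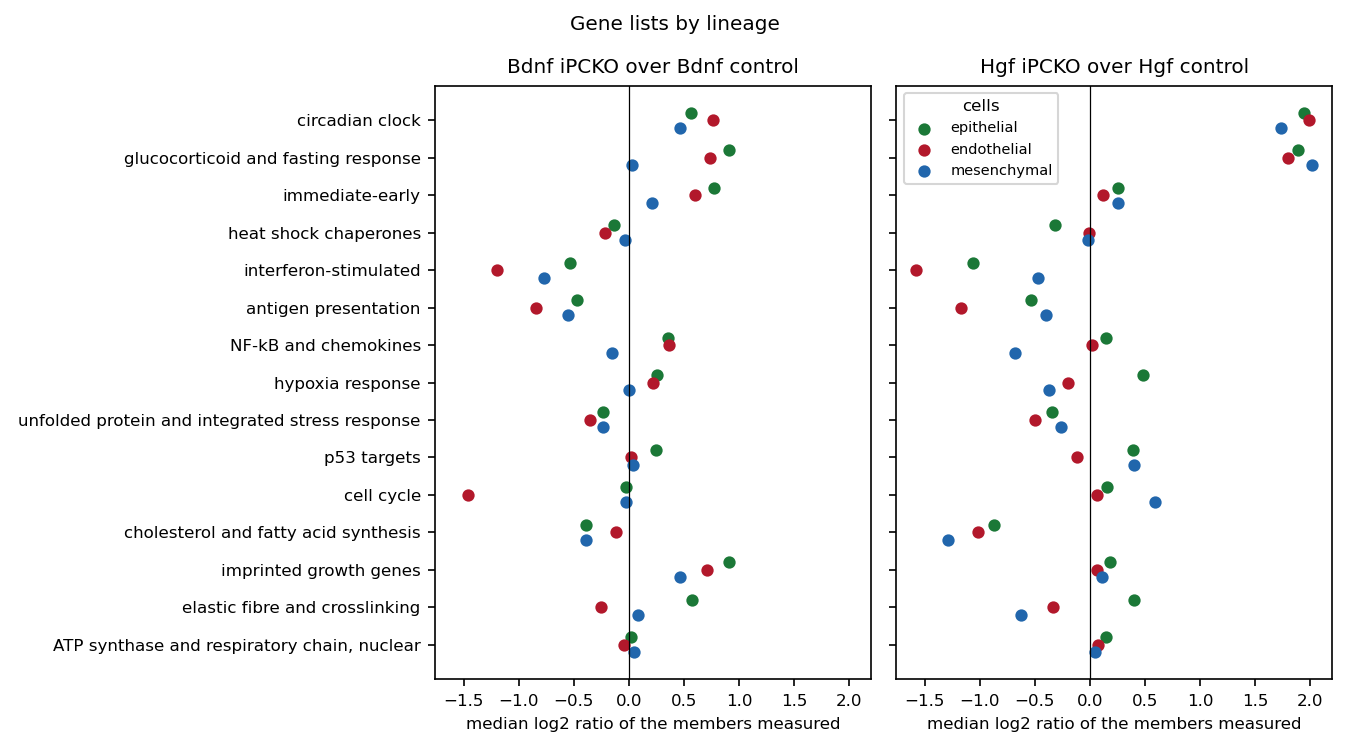
Median log2 ratio of the measured members of each gene list, iPCKO over control, in epithelial (green), endothelial (red) and mesenchymal (blue) cells of the Bdnf pair (left) and the Hgf pair (right). In the Bdnf pair the clock medians lie between 0.46 and 0.76, the interferon medians between -1.20 and -0.53, and the endothelial cell cycle median at -1.47.

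Genes that respond to glucocorticoids and fasting differed in 2 of the 3 lineages. Pdk4, a kinase that holds back glucose oxidation, had 3.73 and 15.8 CPM in epithelial cells, a log2 ratio of 2.08, against 1.42 in endothelial and 0.40 in mesenchymal cells. In endothelial cells fewer than 3 Pdk4 UMIs remained in both libraries once the profile of barcodes without a cell was subtracted. Mt2, a metal-binding metallothionein, had 177 and 533 CPM in epithelial, 14.8 and 44.2 CPM in endothelial, and 585 and 510 CPM in mesenchymal cells. Fkbp5, a co-chaperone of the glucocorticoid receptor, had log2 ratios of 1.07, 0.62 and -0.20. Of the 12 members, 6 were at least 2-fold higher in epithelial cells, 4 in endothelial cells and 0 in mesenchymal cells, with medians of 0.91, 0.73 and 0.03. In the Hgf pair the medians were 1.89, 1.80 and 2.02, so there the mesenchyme stood with the other lineages.

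Immediate-early genes, which cells switch on within minutes of a stimulus and also during tissue dissociation, had medians above that of all genes in epithelial and endothelial cells. Of the 17 members 16 were above 0 in epithelial cells and 17 in endothelial and in mesenchymal cells, beside 8922 of 16333, 6220 of 13912 and 6819 of 12813 among all genes, though in mesenchymal cells 0 of the 17 reached 2-fold. Fos was 863 CPM in control and 1578 CPM in iPCKO epithelial cells, 2570 and 3898 CPM in endothelial cells, and 7749 and 8816 CPM in mesenchymal cells. Egr2, a zinc-finger factor of this group, had log2 ratios of 1.61, 0.78 and 0.77. The list medians were 0.77, 0.60 and 0.21 (the last at -0.0018 in cells with at least 3000 UMIs), with 4, 2 and 0 of 17 members at least 2-fold higher, and in the Hgf pair 0.25, 0.12 and 0.25. Heat shock chaperones, which dissociation also raises, had medians of -0.14, -0.22 and -0.04 and no member past 2-fold.

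Imprinted growth genes, which are high in the fetus and silenced after birth, were above 0 for 9 of 10 members in epithelial, 7 of 9 in endothelial and 8 of 10 in mesenchymal cells, in part from small numbers of cells. Among all genes 8922 of 16333, 6220 of 13912 and 6819 of 12813 were above 0 in these lineages. H19, a maternally expressed long RNA, had 14 and 95 UMIs in epithelial, 417 and 1580 UMIs in endothelial and 429 and 3886 UMIs in mesenchymal cells. The mesenchymal UMIs came from 39 control and 142 iPCKO cells, and mesothelial-like cells held 4 and 750 of them and cells of no named subtype 118 and 2169. The epithelial H19 UMIs fell below 3 in both libraries after subtraction of the profile of barcodes without a cell. In the endothelium venous-like cells held 0 and 337 of the H19 UMIs, while lymphatic-like cells held 302 and 184. With subtypes weighted equally the endothelial log2 ratio of H19 was 0.25 and that of Igf2 0.55, against 1.75 and 2.10 over all endothelial cells. Igf2, the fetal growth factor next to H19, had ratios of 1.06 in epithelial and 1.10 in mesenchymal cells. Meg3, another imprinted long RNA, had 43.9 and 113 CPM in epithelial and 13.2 and 41.9 CPM in endothelial cells. The list medians were 0.91, 0.71 and 0.47 for epithelial, endothelial and mesenchymal cells. At least 2-fold higher were 5 of 10, 3 of 9 and 3 of 10 members, beside 1.71%, 1.01% and 1.45% of all genes. With subtypes weighted equally the endothelial and mesenchymal medians were 0.41 and 0.25.

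Position in the genome set apart one further group. Medians of log2 ratios were taken over windows of 15 neighbouring genes measured in the 3 lineages. Of 11539 windows, 62 had a median of at least 0.3 in each lineage, and all 62 lay on chromosome 5. On the other chromosomes the largest such value was 0.16. The stretch was chosen from these ratios and its values are therefore a description. It ran from Arap2 to Polr2b on GRCm39, chr5:62759788-77499051, over 14.7 Mb and 62 measured genes, of which 60 were above 0 in each of the 3 lineages. The 62 leave out 3 genes of the stretch that served as gate or subtype markers, Pdgfra, Kit and Hopx, with mesenchymal ratios of -0.04, 1.06 and 1.5.

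The ratios inside this stretch were shifted as a group. The medians were 0.58 in epithelial, 0.53 in endothelial and 0.60 in mesenchymal cells, and the lower and upper quartiles of the mesenchymal ratios were 0.50 and 0.86. The 15 genes before it had medians of -0.09, 0.06 and 0.08, and the 15 genes after it 0.15, 0.11 and 0.08. In each of the 14 subtypes with at least 100 cells in both libraries the median lay between 0.49 (arterial-like) and 0.67 (matrix fibroblast-like). The edge was less clear in some of them, as the genes after the stretch had medians of 0.52 in AT1-like, 0.42 in matrix fibroblast-like and 0.39 in venous-like cells. Genes of unrelated function moved alike: the kelch-like gene Klhl5 had 0.92, 0.49 and 1.09, the lipoate synthase Lias 0.72, 0.60 and 0.53, and the microtubule protein gene Slain2 0.48, 0.61 and 0.64. Gabrb1, a GABA receptor subunit, was an exception at -0.14, -0.13 and -0.04. Clock itself lies in the stretch and had 0.22, 0.45 and 0.31.

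Uchl1, a neuronal deubiquitinase, had the highest ratios of the stretch. It had 78 and 508 UMIs in epithelial, 110 and 505 UMIs in endothelial and 2 and 100 UMIs in mesenchymal cells, log2 ratios of 2.77, 2.02 and 5.21 (the last with an interval of 3.63 to 8.59). The iPCKO UMIs were spread over 293 epithelial, 395 endothelial and 70 mesenchymal cells. Tec, a cytoplasmic tyrosine kinase, had 0.88, 0.99 and 1.41, but its endothelial ratio was -2.05 after the profile of barcodes without a cell was subtracted. Kdr, the main receptor for vascular endothelial growth factor, had 957 and 1244 CPM in endothelial cells, its usual site, a ratio of 0.38. Of the 80 genes higher in the 3 lineages, 13 (16.2%) lie in the stretch, which holds 0.523% of the genes measured. The stretch was chosen from the same ratios as these genes, so a higher share was built in and is a description only.

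The genes of this stretch were also higher on balance in the other pairs, where no windows were searched. Their medians were 0.49, 0.44 and 0.67 in epithelial, endothelial and mesenchymal cells of the Hgf pair, with 55 of 61, 47 of 58 and 34 of 39 genes above 0. Among all genes of that pair 6880 of 13680, 5299 of 12342 and 4289 of 6905 were above 0. In the Hgf mesenchyme the median of all genes was 0.17 and that of the 15 genes after the stretch 0.40. The median was 0.52 over all cells of the Nodal cortex pair, where 61 of 61 measured genes were above 0. Over chromosome 5 as a whole 376 of 747 genes were above 0 in that pair. Between the 2 lung controls, Hgf over Bdnf, the medians were -0.18, -0.12 and -0.15, beside -0.09, 0.01 and -0.10 for all genes. The deleted gene differed between the pairs, being Bdnf, Hgf or Nodal. In all 3 pairs the iPCKO library carried the CreERT2 transgene and the control did not. Within a pair the transgene, the deletion and the animals cannot be told apart, and their part in these values was not tested.

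**Figure D4:**
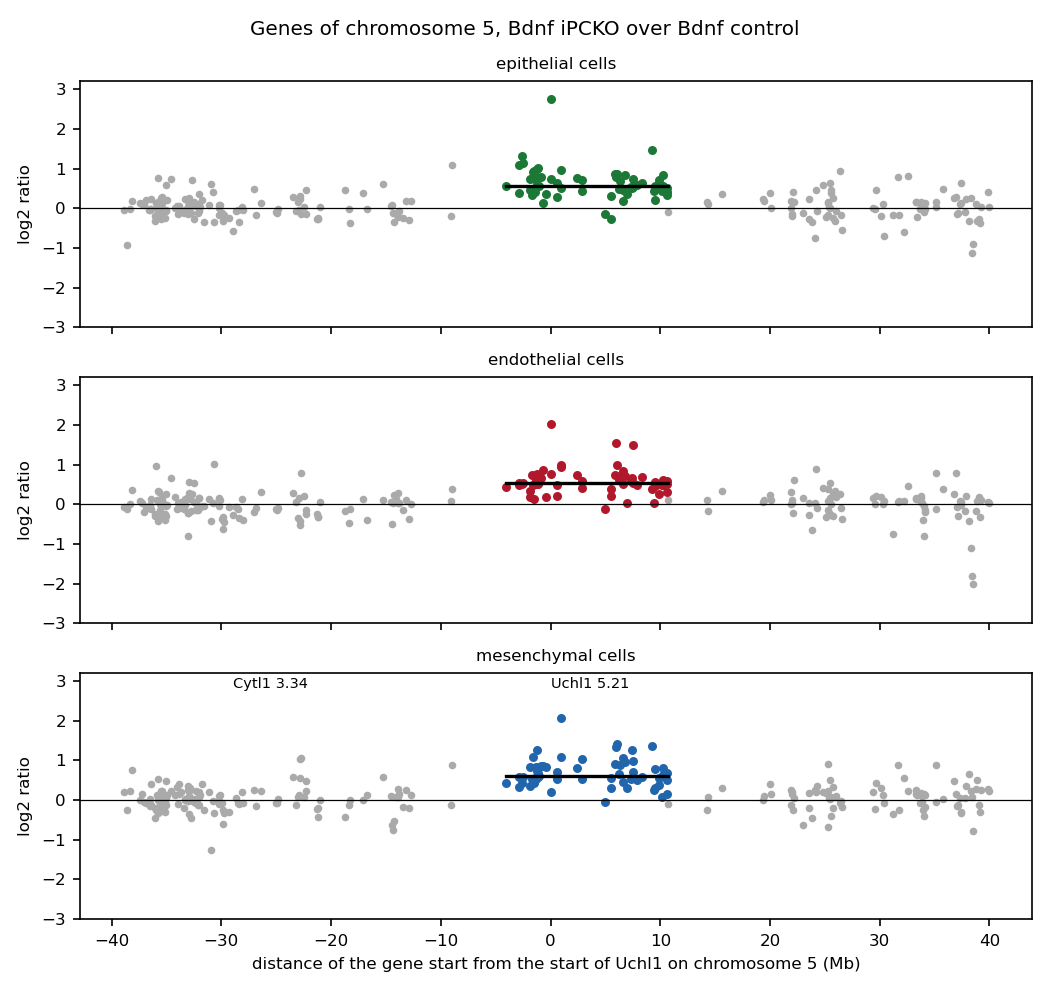
Log2 ratio of CPM, iPCKO over control, of genes on chromosome 5 against the distance of their start from the start of Uchl1 (in Mb), in epithelial, endothelial and mesenchymal cells. Coloured points are the 62 genes from Arap2 to Polr2b, grey points are other genes, and the black line is the median of the coloured points, at 0.58, 0.53 and 0.60; 2 mesenchymal values above the axis are written at its upper edge.

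Genes that differed in 1 lineage only were taken by a stricter rule than the shared genes, so the counts of the 2 kinds are not compared. They were at least 2-fold different in 1 of the 3 large lineages and under 1.2-fold in the others, and 33 genes (0.278%) were higher and 11 (0.0928%) lower in this way. Of 11857 genes, 21 (0.177%) were higher and 2 (0.0169%) lower in epithelial cells only, 9 (0.0759%) and 6 (0.0506%) in endothelial cells only, and 3 (0.0253%) and 3 (0.0253%) in mesenchymal cells only. Over 4 lineages, 1 gene of 1604 (0.0623%), Emp3, was the only such gene of a large lineage, higher in epithelial cells, while 9 genes (0.561%) were higher and 9 (0.561%) lower in the few immune cells only. The 6 genes lower in endothelial cells only included Top2a, Ccna2 and Ube2c of the cell cycle list, and Racgap1. Bdnf was among the 9 that were higher, with the limit from free RNA given above.

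In the endothelium Top2a, a topoisomerase of dividing cells, had 42.3 CPM in control and 10.3 CPM in iPCKO, while its epithelial log2 ratio was -0.13 and its mesenchymal ratio -0.13. Ccna2, cyclin A2, had 16.9 and 4.22 CPM, against ratios of 0.08 and 0.11 in the other lineages. Ube2c, a ubiquitin-conjugating enzyme of mitosis, had 20.8 and 6.33 CPM, and Racgap1, which acts in cytokinesis, had an endothelial ratio of -1.13. Of 15 cell cycle genes, 8 were at least 2-fold lower in endothelial cells, 0 in epithelial cells and 0 of the 12 measured in mesenchymal cells, with medians of -1.47, -0.03 and -0.03. Of the 15, 13 were below 0 in endothelial cells. With every cell thinned to 1500 UMIs the endothelial median was -0.93 and the epithelial one -0.28. Among genes of DNA replication, Rrm2, a ribonucleotide reductase subunit, was 1 of the 8 with -1.47, and Pcna and Mcm6 had 0.17 and -0.14.

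These UMIs came from few cells. Mki67, a marker of cycling cells, had 718 UMIs in control and 186 in iPCKO endothelial cells, of which gCap-like cells held 316 and 90 and venous-like cells 323 and 6. After every cell was thinned to 1500 UMIs, 62 of 4474 control endothelial cells (1.39%, interval 1.06 to 1.77) and 38 of 6180 iPCKO cells (0.615%, interval 0.436 to 0.843) had UMIs of at least 3 cell cycle genes. The thinned shares were 0.466% and 0.482% in epithelial and 0.112% and 0.103% in mesenchymal cells. Without thinning the endothelial shares were 9.45% and 5.84%, beside 8.49% and 6.96% in epithelial and 2.91% and 1.67% in mesenchymal cells. In the Hgf endothelium the thinned shares were 0.253% and 0.197% and those without thinning 2.43% and 1.26%, and Top2a stood at 0.934 CPM in control and 3.85 CPM in iPCKO endothelial cells. For Mki67, Top2a and the other 6 genes that were at least 2-fold lower in the iPCKO endothelium, the Bdnf control had the highest CPM of the 4 lung libraries.

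**Figure D5:**
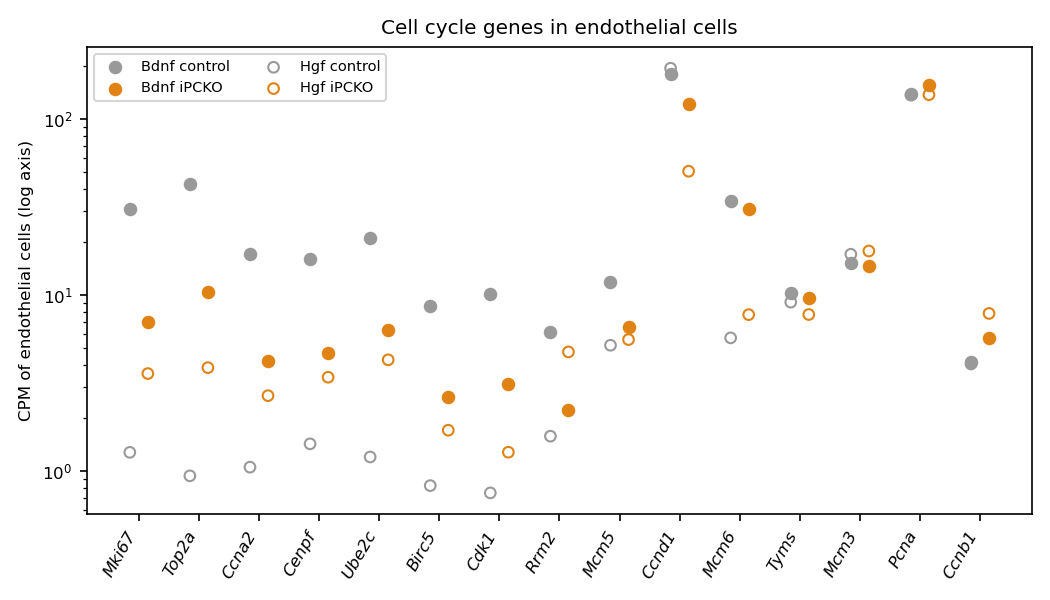
CPM (log axis) of the 15 cell cycle genes in endothelial cells of the Bdnf control (filled grey), Bdnf iPCKO (filled orange), Hgf control (open grey) and Hgf iPCKO (open orange) libraries, ordered by the Bdnf log2 ratio. From Mki67 to Rrm2 the Bdnf control has the highest value of the 4 libraries, and the Bdnf iPCKO value is at least 2-fold lower.

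In epithelial cells only, the largest difference was in Gas1, a membrane protein that modulates Hedgehog signalling, with a log2 ratio of 1.49 against -0.04 in endothelial and 0.01 in mesenchymal cells. Emp3 (1.45), the actin-bundling Fscn1 (1.41), the inflammatory caspase Casp4 (1.31) and Fstl1 (1.31), a secreted glycoprotein, followed. The subtype shares of the epithelium differed between the libraries, with AT2-like cells at 70.0% in control and 57.7% in iPCKO. With subtypes weighted equally, the genes of 1 large lineage only were 60 higher and 30 lower, beside 33 and 11. The part of the subtype shares in the epithelial ratios was not tested. Fscn1, Casp4 and Fstl1 were also higher in the Hgf epithelium, at 3.39, 1.71 and 1.22, and Gas1 and Emp3 were not, at -0.81 and -0.24. Scd1, a desaturase of fatty acid synthesis, was 1 of the 2 lower genes, at -1.02. Among the genes with the lowest epithelial ratios, Phf24 had 7.71 CPM in control and 0.557 CPM in iPCKO, Nrn1, a neurite-growth protein gene, 1050 and 180 UMIs, and Ankrd1, a target of stretch signalling, 485 and 132 UMIs. Mylk, the myosin light chain kinase, had 78.0 and 24.8 CPM in epithelial cells, 107 and 32.5 CPM in AT2-like cells, and 14.1 and 17.7 CPM in AT1-like cells. The epithelial log2 ratios of Phf24, Nrn1, Ankrd1 and Mylk in the Hgf pair were -4.25, -2.49, -1.33 and -2.53.

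In the endothelium Igfbp6 (1.37), which binds insulin-like growth factors, and Cyp1b1 (1.12), a cytochrome P450, were higher in that lineage only. The profile of barcodes without a cell accounted for 12.7% of the UMIs subtracted from control and 18.3% from iPCKO endothelial cells. The part of free RNA in the ratios of Igfbp6 and Cyp1b1 was not tested. Lamc3, a laminin chain, was among the highest endothelial genes, with 4.04 and 12.9 CPM. Scn3a, a sodium channel gene, was lower in endothelial (466 and 115 UMIs) and in mesenchymal cells (861 and 181 UMIs). Rnase1, a secreted ribonuclease, had 243 and 61 endothelial UMIs. The endothelial ratios of Col2a1 and Col11a1, -6.99 and -5.04, rested on 1 control cell that held 99.6% and 98.7% of their control UMIs, and without the cell with the most UMIs in each library they were 0.19 and 0.90.

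In mesenchymal cells Sqle, the squalene epoxidase of sterol synthesis, had 17.0 CPM in control and 5.50 CPM in iPCKO, a log2 ratio of -1.62 against -0.25 in epithelial and -0.23 in endothelial cells. Adventitial fibroblast-like cells held most of its mesenchymal UMIs in control, at 185 against 22 in iPCKO (23.7 and 2.89 CPM), and myofibroblast-like cells had 7.97 and 4.23 CPM. The median of the cholesterol and fatty acid synthesis list, with 16 measured members, was -0.39 in mesenchymal and also in epithelial cells, where 15 of 16 were below 0, and -0.12 in endothelial cells. Colq, a collagen-tailed anchor of acetylcholinesterase, had 343 and 76 UMIs, and Nrcam, a cell adhesion gene, 25.6 and 7.83 CPM. Cartilage genes (Col2a1, Col9a1, Acan) and fat cell genes (Cfd, Car3) had the highest mesenchymal ratios, but from at most 22 cells per gene in either library, and the Col9a1 ratio of 5.08 was -0.40 with subtypes weighted equally. A single iPCKO cell held 98.8% of the Cfd and 98.1% of the Car3 UMIs.

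The 95 immune-gated cells were mostly of no listed type: 50 of 57 control and 31 of 38 iPCKO cells matched none of the myeloid, neutrophil, B or T and NK cell marker sets. Genes of basophils and granulocyte precursors, such as Mcpt8, Prss34, Elane and Ctsg, were among their leading genes in both libraries. Most of their extreme ratios rested on few cells. Igha and Jchain, of antibody-secreting cells, had 1736 and 450 UMIs from 2 control cells and 0 in iPCKO, and Ngp and Lcn2, of neutrophil granules, were found in 3 and 5 control cells. Mt2 had 65 and 337 UMIs, from 3 and 8 cells.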

How the data were processed

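The authors deposited UMI matrices for 6 libraries made by BD Rhapsody whole transcriptome analysis, mapped with STAR 2.7.10a to GRCm39 per the submitters' processing notes. The values deposited by the authors are estimated counts, in which STARsolo divides reads that map to several genes, so that genes with copies elsewhere are uncertain and values need not be whole. These counts were summed without rounding, and no count model was fitted. A cell belonged to a lineage with at least 4 of its gate markers and at least 2 times those of the next lineage. Subtypes were called by markers within a lineage. Doublets called by Scrublet (scanpy 1.11.5) were kept, and removed as an alternative. CPM per library and lineage gave log2 ratios with an offset of 0.5 UMIs and conditional exact intervals for genes with at least 100 UMIs in the pair. Cells are not replicates and each genotype has 1 library, so no test was made and no p-value given. UMI intervals cover counting error only. The study's own tests on pseudoreplicates were not used. Named were genes shared by all lineages (up to 20 by their smallest ratio), the 5 highest and 5 lowest per lineage with at least 300 UMIs, up to 5 genes of a single lineage, Bdnf, Ntrk2, Pdgfrb and list members. Myoz3, Csf1r and the chromosome 5 genes were named after their values were seen. The members and gene lists were chosen with earlier results of these data known. Alternatives changed the cell limits, the gate, the scaling, the fold, the UMI minimum, subtype weights and free RNA. The steps were tested on simulated data. Python 3.11.15, numpy 2.4.6, scipy 1.17.1, pandas 2.3.3 and matplotlib 3.10.9 were used. Promoters came from RefSeq on GRCm38.p6, another build than the files', and were matched by symbol. Some genes that meet the naming rule are not reported here.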

Additional observations from a re-analysis of the deposited data

Results flagged for a closer look

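Some values had the opposite sign in the Bdnf and the Hgf pair, which share the driver, the age and the tamoxifen course. The difference between the pairs was not tested, since each genotype has 1 library. The mesenchymal log2 ratio of H19, iPCKO over control, was 3.06 in the Bdnf pair and -2.59 in the Hgf pair. Part of the mesenchymal H19 UMIs of the Bdnf pair lay in mesothelial-like cells, 12 in control and 55 in iPCKO. For Igf2 in endothelial cells the ratios were 2.10 and -1.05, and the first was smaller with subtypes weighted equally, as given above. Reg3g, an antibacterial lectin of the airway epithelium, had epithelial ratios of 1.09 and -4.79. Retnla, a secreted protein of the resistin family, had 1.02 and -1.33 in epithelial cells and 1.09 and -1.56 in endothelial cells.

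The median log2 ratio of the chromosome 5 genes from Arap2 to Polr2b was 0.52 in the Nodal cortex pair, a tissue outside the lung comparison, and this difference was not tested either.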

How the results depend on the processing

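No paired analysis was possible because each genotype has 1 library, and for the same reason no replicate could be left out in turn. Of the values recomputed under the alternatives, 408 counts, shares and medians and 1446 values of single genes, subtypes and lineages stayed within their limits, 143 and 343 moved out of them, and 2 and 13 that were past the limit used for a call changed sign. Counting also values near 0, 18 and 52 had the opposite sign to the value reported. Where a value moved, the cause was not tested. The grouping into 3 large lineages, the list of chromosome 5 genes and the leaving out of single cells were chosen after seeing the data. Small numbers of cells limit the immune, pericyte-like and mesothelial-like cells, and free RNA and cell loss were not measured apart from the cells.

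At 1.5-fold, counts were 1272 epithelial higher, 386 epithelial lower, 666 endothelial higher, 618 endothelial lower, 686 mesenchymal higher, 427 mesenchymal lower, 118 immune higher and 208 immune lower. With at least 10 UMIs per gene, 2-fold counts were 1360 epithelial higher, 512 epithelial lower, 900 endothelial higher, 709 endothelial lower, 1078 mesenchymal higher, 496 mesenchymal lower, 723 immune higher and 647 immune lower. Genes shared were 17 higher in 4 lineages, 2 lower in 4 lineages, 270 higher in 3 lineages and 71 lower in 3 lineages. Single-lineage counts were 297 higher of 4 lineages, 203 lower of 4 lineages, 168 higher of 3 lineages and 97 lower of 3 lineages. With at least 300 UMIs per gene, 2-fold counts were 129 epithelial higher, 39 epithelial lower, 64 endothelial higher, 82 endothelial lower, 70 mesenchymal higher, 45 mesenchymal lower, 4 immune higher and 12 immune lower. Genes shared were 1 higher in 4 lineages, 43 higher in 3 lineages and 9 lower in 3 lineages. Genes of a single lineage were 1 higher of 4 lineages, 0 lower of 4 lineages, 18 higher of 3 lineages and 4 lower of 3 lineages. In cells with at least 3000 UMIs, share differences, iPCKO minus control, were -1.29 (epithelial), -3.5 (endothelial), -1.65 (mesenchymal) and 4.67 (several lineages) points. Subtype share differences were -10.1 (AT2), 2.5 (AT1), -7.83 (gCap), 1.34 (aCap), 2.75 (venous), -7.09 (matrix fibroblast), 10.2 (adventitial fibroblast), -7.59 (myofibroblast) and 1.63 (mesothelial) points. Genes shared were 51 higher in 3 lineages. List medians were -0.87 (antigen presentation endothelial), -0.067 (glucocorticoid mesenchymal) and -0.0018 (immediate-early mesenchymal). Log2 ratios were -0.15 (Bdnf epithelial) and -0.27 (Bdnf mesenchymal). At an mt- share of at most 15%, share differences, iPCKO minus control, were -6.01 (epithelial), 0.806 (endothelial) and 2.03 (mesenchymal) points. Subtype share differences were -20.2 (AT2), 13.7 (AT1) and 2.24 (ciliated) points. List medians were 0.70 (circadian clock epithelial), 0.88 (immediate-early epithelial) and 0.62 (immediate-early endothelial). Log2 ratios were 0.14 (Bdnf epithelial). With every cell thinned to 1500 UMIs, share differences, iPCKO minus control, were -2.43 (epithelial) and 1.76 (several lineages) points. Subtype share differences were 7.63 (AT1), -7.62 (gCap) and -0.343 (arterial) points. The 2-fold counts were 110 epithelial higher, 31 epithelial lower, 83 endothelial higher, 74 endothelial lower, 66 mesenchymal higher, 0 immune higher and 4 immune lower. Genes shared were 1 higher in 4 lineages and 12 lower in 3 lineages. Single-lineage counts were 0 higher of 4 lineages, 0 lower of 4 lineages and 14 higher of 3 lineages. List medians were 0.66 (circadian clock epithelial), 0.18 (glucocorticoid mesenchymal), 0.69 (immediate-early epithelial), 0.69 (immediate-early endothelial), 0.28 (immediate-early mesenchymal), -0.28 (cell cycle epithelial), -0.93 (cell cycle endothelial), 1.10 (imprinted epithelial) and 0.48 (imprinted endothelial). Log2 ratios were 0.40 (Bdnf epithelial), -0.23 (Bdnf mesenchymal), 0.23 (Col2a1 endothelial) and 1.08 (Col11a1 endothelial). Under a stricter gate, share differences, iPCKO minus control, were -5.78 (epithelial), -1.81 (endothelial), -1.57 (mesenchymal) and 1.05 (several lineages) points. Subtype share differences were -17.6 (AT2), 3.8 (airway secretory), 2.27 (ciliated), 6.49 (adventitial fibroblast), 0.871 (myofibroblast) and 0.309 (mesothelial) points. The 2-fold counts were 16 immune higher. Genes of a single lineage were 5 lower of 4 lineages, 18 higher of 3 lineages and 19 lower of 3 lineages. List medians were 0.84 (immediate-early epithelial), 0.62 (immediate-early endothelial) and 0.10 (immediate-early mesenchymal). Log2 ratios were 1.38 (Col11a1 endothelial) and -0.51 (Car2 immune). Without Scrublet doublets, 2-fold counts were 118 immune lower. Single-lineage counts were 18 higher of 4 lineages and 18 lower of 4 lineages. List medians were 0.80 (immediate-early epithelial) and 0.62 (immediate-early endothelial). Log2 ratios were 0.23 (Col2a1 endothelial) and 0.79 (Col11a1 endothelial). Under median-of-ratios scaling, list medians were 0.75 (immediate-early epithelial) and 0.63 (immediate-early endothelial). With subtypes weighted equally, genes of a single lineage were 60 higher of 3 lineages and 30 lower of 3 lineages. List medians were 0.45 (circadian clock epithelial), -1.18 (interferon-stimulated mesenchymal), 0.73 (glucocorticoid epithelial), 0.56 (glucocorticoid endothelial), 0.20 (glucocorticoid mesenchymal), 0.52 (immediate-early epithelial), 0.56 (immediate-early endothelial), 0.33 (immediate-early mesenchymal), -0.25 (cell cycle epithelial), 0.41 (imprinted endothelial) and 0.25 (imprinted mesenchymal). Log2 ratios were -0.44 (Bdnf mesenchymal), -0.40 (Col9a1 mesenchymal), -0.11 (Slc38a1 epithelial), -0.12 (Gpm6a mesenchymal) and -0.13 (Nherf1 mesenchymal). After subtraction of free RNA, 2-fold counts were 336 endothelial lower. Genes shared were 1 higher in 4 lineages and 33 higher in 3 lineages. Genes of a single lineage were 44 lower of 3 lineages. List medians were 0.50 (circadian clock epithelial), 0.55 (glucocorticoid endothelial), 0.96 (immediate-early epithelial) and 0.67 (immediate-early endothelial). Log2 ratios were -2.05 (Tec endothelial). Without the cell with the most UMIs of each gene, 2-fold counts were 11 immune higher. Single-lineage counts were 5 higher of 4 lineages and 7 lower of 3 lineages. Log2 ratios were 0.19 (Col2a1 endothelial) and 0.90 (Col11a1 endothelial).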

Other observations

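Median log2 ratios of the other gene lists are given in the order epithelial, endothelial and mesenchymal cells. Unfolded protein and integrated stress response genes had median log2 ratios of -0.23 in epithelial, -0.36 in endothelial and -0.24 in mesenchymal cells. Chemokines and other NF-kB targets had 0.35, 0.36 and -0.16, hypoxia genes 0.26, 0.22 and 0.00, and p53 targets 0.24, 0.02 and 0.04. Genes of elastic fibres and their crosslinking, which shape the alveolar wall, had 0.58 in epithelial, -0.25 in endothelial and 0.08 in mesenchymal cells, where these genes are mainly made. Nuclear genes of ATP synthase and the respiratory chain were the most level, at 0.02, -0.05 and 0.04. Nuclear-retained long RNAs had 0.09, 0.13 and 0.07. Neurotrophins and their receptors had 0.00, 0.85 and -0.13, over 6, 5 and 6 measured members of 9. The highest endothelial member was Bdnf itself, at 1.08, with the limit from free RNA given above. Sex-linked genes had 0.05, -0.01 and 0.18.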
